A study of Mus musculus with 39 samples.

Results

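A set of 456 genomic regions carried strong H3K27ac in the DP and Pdgfra+ populations of mouse naive extra-embryonic endoderm (nEnd) and no strong H3K27ac in its Oct4+ population. They were selected on H3K27ac itself. Each of the 9 H3K27ac peak lists was cut to its 3079 peaks of highest total signal, the length of the shortest list, and the cut lists were merged into 8127 regions. A region was kept when it held a peak of all 6 DP and Pdgfra+ libraries and of none of the 3 Oct4+ libraries, so the H3K27ac values below describe the choice and were not tested. The word "only" would not hold for these regions, because 419 of the 456 (91.9%) overlapped a weaker Oct4+ H3K27ac peak in the uncut lists, and 196 held Oct4+ peaks over at least 50% of their length. How many of all 8127 regions overlap an uncut Oct4+ peak was not counted. For comparison, 409 regions with a peak in all 9 cut lists are called constant regions, and 473 regions with a peak in the 3 Oct4+ lists and in no other are called Oct4+ regions.

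CUT&Tag peak lists were available for 36 libraries, 3 replicates each of H3K27ac, H3K4me1, H3K27me3 and H3K9me3 in each population, besides 3 IgG samples that were not used here. All libraries came from 1 kind of culture, nEnd that had been differentiated from embryonic stem cells with an OCT4-mCherry reporter and expanded on mouse embryonic fibroblasts in RACL medium, with no further treatment or genetic change between the groups. Cells were sorted by FACS into those positive for OCT4-mCherry (Oct4+), for OCT4-mCherry and the PDGFRA surface receptor (DP), and for PDGFRA (Pdgfra+). The study describes its replicates as biological, but the labels do not say whether the 3 of a population came from separate cultures, so p-values measure the spread between these libraries, which may be technical.

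H3K27ac marks active promoters and enhancers, H3K4me1 marks enhancers that are active or primed as well as the flanks of active promoters, H3K27me3 is laid down by Polycomb repressive complexes at silenced developmental genes, and H3K9me3 marks heterochromatin. The primitive endoderm, which nEnd models in culture, is the blastocyst lineage that gives rise to the visceral and parietal endoderm of the yolk sac. It is specified by GATA, SOX and FOXA transcription factors and secretes a basement membrane of type IV collagen and laminin.

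Some of the strongest of these regions lay outside promoters. Below are the sequences of 300 bases around the H3K27ac maximum for the 8 of highest mean rank over the DP and Pdgfra+ libraries. That of the region near the matrix gene Sparc is added. All are from the plus strand of GRCm38 (mm10) as RefSeq holds it. The H3K4me1 and motif results concern regions at promoters as well. Capitals mark matches to 6 motifs, each searched on both strands: GATA with the letters AGATAAG or TGATAAG, SOX (AACAATG or AACAAAG), FOX (TGTTTAC), AP-1 (TGACTCA or TGAGTCA, which are each other's reverse complement), TEAD (CATTCCA) and HNF1 (GTTAATNA). The region whose nearest TSS is that of Gata4, 65.6 kb away, is shown by chr14:63340373-63340672, the region in an intron of Gsn by chr2:35267153-35267452 and that in an intron of Creb3l2 by chr6:37399411-37399710. The region 60.1 kb from the TSS of Dscam is shown by chr16:97241716-97242015, that 3.43 kb from Arhgap8 by chr15:84713028-84713327 and that 11.3 kb from Klf6 by chr13:5837392-5837691. The region 46.1 kb from Podxl is shown by chr6:31618974-31619273, that in an intron of Vit by chr17:78586741-78587040 and that 4.16 kb from Sparc by chr11:55430458-55430757.
Gata4 region: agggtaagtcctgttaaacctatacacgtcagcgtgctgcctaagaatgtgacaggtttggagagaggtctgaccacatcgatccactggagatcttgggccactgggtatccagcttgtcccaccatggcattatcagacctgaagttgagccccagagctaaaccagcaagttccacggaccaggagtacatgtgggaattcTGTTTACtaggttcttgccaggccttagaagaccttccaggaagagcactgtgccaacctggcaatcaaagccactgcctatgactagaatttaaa
Gsn intron: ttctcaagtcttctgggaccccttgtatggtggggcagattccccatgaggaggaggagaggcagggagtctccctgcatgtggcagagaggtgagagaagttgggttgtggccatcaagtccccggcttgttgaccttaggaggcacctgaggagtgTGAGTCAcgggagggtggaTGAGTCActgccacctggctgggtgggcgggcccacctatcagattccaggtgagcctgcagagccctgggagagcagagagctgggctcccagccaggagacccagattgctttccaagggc
Creb3l2 intron: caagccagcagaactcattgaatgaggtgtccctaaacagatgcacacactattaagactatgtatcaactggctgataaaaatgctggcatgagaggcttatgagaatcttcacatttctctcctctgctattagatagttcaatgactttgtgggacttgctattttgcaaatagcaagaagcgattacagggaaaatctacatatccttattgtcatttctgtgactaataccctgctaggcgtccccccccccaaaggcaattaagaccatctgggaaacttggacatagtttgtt
Dscam region: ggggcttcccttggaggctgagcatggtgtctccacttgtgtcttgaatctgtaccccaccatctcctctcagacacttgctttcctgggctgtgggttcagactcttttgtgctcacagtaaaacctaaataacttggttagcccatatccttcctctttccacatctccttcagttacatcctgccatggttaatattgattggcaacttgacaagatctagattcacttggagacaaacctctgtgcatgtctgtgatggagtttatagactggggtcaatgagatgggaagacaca
Arhgap8 region: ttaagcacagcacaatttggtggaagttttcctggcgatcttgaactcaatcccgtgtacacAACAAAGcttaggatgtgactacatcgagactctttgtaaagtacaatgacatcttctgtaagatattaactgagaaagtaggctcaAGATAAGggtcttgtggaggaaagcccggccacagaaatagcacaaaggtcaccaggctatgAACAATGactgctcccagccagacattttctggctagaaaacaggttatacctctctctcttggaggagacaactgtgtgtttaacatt
Klf6 region: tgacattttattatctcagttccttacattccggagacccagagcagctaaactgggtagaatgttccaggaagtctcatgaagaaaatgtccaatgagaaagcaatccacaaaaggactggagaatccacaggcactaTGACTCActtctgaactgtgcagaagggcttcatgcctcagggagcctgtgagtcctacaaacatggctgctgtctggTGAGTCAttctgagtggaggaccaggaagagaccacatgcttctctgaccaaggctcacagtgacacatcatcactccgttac
Podxl region: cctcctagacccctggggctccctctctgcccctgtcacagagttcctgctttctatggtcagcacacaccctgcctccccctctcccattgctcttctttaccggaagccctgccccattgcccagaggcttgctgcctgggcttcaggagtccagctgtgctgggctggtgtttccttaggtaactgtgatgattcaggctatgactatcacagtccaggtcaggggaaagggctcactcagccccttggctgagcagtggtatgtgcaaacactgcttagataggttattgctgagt
Vit intron: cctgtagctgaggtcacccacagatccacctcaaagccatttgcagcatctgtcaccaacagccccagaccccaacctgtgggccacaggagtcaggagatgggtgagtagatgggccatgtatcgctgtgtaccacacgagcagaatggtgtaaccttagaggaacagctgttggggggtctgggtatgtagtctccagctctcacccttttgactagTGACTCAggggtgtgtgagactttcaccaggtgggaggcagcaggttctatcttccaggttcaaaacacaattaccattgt
Sparc region: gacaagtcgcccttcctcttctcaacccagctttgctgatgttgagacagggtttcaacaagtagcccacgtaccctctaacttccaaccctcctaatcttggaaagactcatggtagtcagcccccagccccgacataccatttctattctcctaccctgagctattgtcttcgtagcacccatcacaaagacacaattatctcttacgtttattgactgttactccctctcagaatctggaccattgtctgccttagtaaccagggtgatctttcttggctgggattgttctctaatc

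The window of the Gata4 region held 1 FOX match, at position 205 of the 300 bases. That of Gsn held 2 AP-1 matches, at positions 159 and 178, and that of Klf6 held 2 more, at 140 and 218. The Arhgap8 window held a GATA match at position 150 between 2 SOX matches at 63 and 212. The Vit window held 1 AP-1 match at 220, and the windows of Creb3l2, Dscam, Podxl and Sparc none of the 6 motifs. A match is a run of letters and not a measured binding site.

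The H3K27ac lists differed in length. Oct4+ lists held 38619, 65131 and 8574 peaks (replicates 1, 2 and 3), DP lists 10957, 3079 and 12244, and Pdgfra+ lists 4792, 7128 and 4861, and the number of reads behind each list is not given in the sources used here, so a missing peak cannot be read as a missing mark. DP replicate 2 entered with its whole list and set the length for the others. H3K4me1 lists ran from 1074 and 1723 peaks (Pdgfra+ replicates 2 and 1) to 16057, and H3K27me3 lists from 1143 to 8672. The populations were checked against marker genes by H3K27ac peaks at a TSS in the uncut lists. Of 15 endoderm transcription factors, 1 to 8 carried one in the Oct4+, 4 to 9 in the DP and 7 in each of the Pdgfra+ libraries, and of 25 pluripotency genes 15 to 23, 6 to 12 and 4 to 8 did. Of 20 fibroblast and mesenchyme markers, which the feeder cells could have brought into a PDGFRA gate, 0 carried a TSS peak in any Pdgfra+ library, with a summed total signal of 0, and at most 1 in a DP library (summed total signal 0 to 19791), among the absent ones Col1a1, Col3a1, Thy1, Pdgfrb and Twist1.

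The 456 regions held H3K27ac of similar standing in all 6 libraries that chose them. Their median rank by total signal, where rank 1 is the strongest peak of a list, was 1052, 955 and 987 in the DP libraries and 935, 930 and 1012 in the Pdgfra+ libraries. The rule set the 6 medians above the cut, and nothing in it set DP against Pdgfra+. Of the 456 regions, 12 ranked higher in all 3 DP than in all 3 Pdgfra+ libraries, and 20 the other way round. Over the 1307 regions with a peak in all 6 cut lists the same orders were met by 3.14% and 5.2%, so a separation of the populations was not more frequent among these regions than among the regions they were drawn from.

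Most of these regions held a weaker Oct4+ H3K27ac peak by an overlap of 1 base or more, and 196 of the 456 by coverage of at least 50%. Oct4+ replicate 1 listed a peak in 348 of the 456 (76.3%), replicate 2 in 407 (89.3%) and replicate 3, whose list was the shortest of that population, in 163 (35.7%). The median ranks of those peaks were 10192 of 38619, 10603 of 65131 and 5190 of 8574, and 89, 93 and 110 of them fell within the first 2 × 3079 places of their lists. Peaks covered a median 38.2%, 45.5% and 30.9% of the region. Counted by region, 162 held a peak of all 3 Oct4+ libraries, 175 of 2, 82 of 1 and 37 of none. These overlaps were not counted over all merged regions, so they cannot be read as a trait of the 456. In sorted bulk samples, a weaker peak from all cells and a strong peak from fewer cells cannot be told apart.

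**Figure D1:**
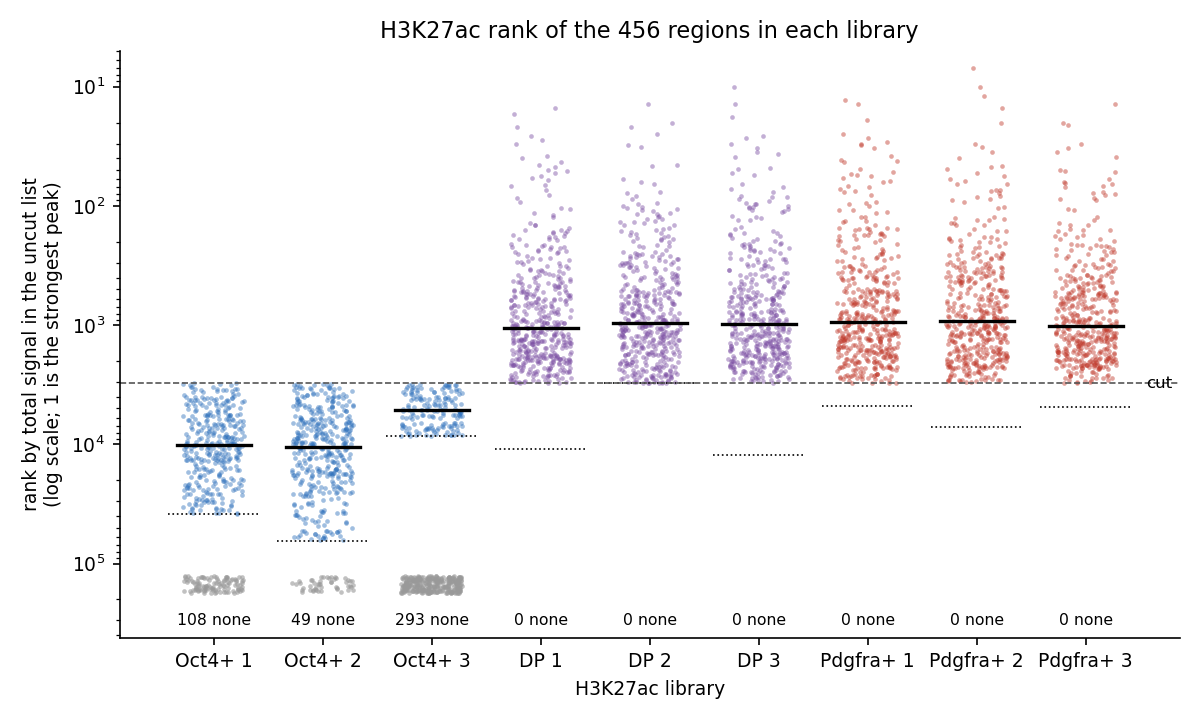
Rank of each of the 456 regions by total H3K27ac signal (vertical, log scale, 1 at the top) in each of the 9 uncut lists (horizontal). Points are regions, thick bars the median of regions with a peak, dotted bars the length of the list, the dashed line the cut at rank 3079, and grey points regions without a listed peak. The DP and Pdgfra+ points lie above the cut and the Oct4+ points below it because the rule chose them so, and 108, 49 and 293 regions have no peak in Oct4+ replicates 1, 2 and 3.

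The threshold ran through a continuous range. The members with the lowest rank in their weakest DP or Pdgfra+ library were Stam2, with a rank of 3076 in its weakest library, Herpud1 (3075), Prr5 (3066), Dcun1d1 (3055) and Foxa2 (3052). Just outside were Dcun1d2 (3092), Cyth2 (3094), Kmt2c (3096), Hsf2 (3098) and Slc7a1 (3112), each absent from a single DP or Pdgfra+ cut list. On the Oct4+ side, the members with the strongest Oct4+ peaks just below the cut were Irf2bp2 (3088) and B4galt1 (3090) in replicate 1, G3bp1 (3096) in replicate 2 and Slc15a4 (3094) in replicate 3. In all, 287 regions without a strong Oct4+ peak missed 1 of the 6 lists, and 200 regions met the 6 but also held a strong peak of 1 Oct4+ library. The number of members depended on how peaks were ranked: it was 228 when maximum signal replaced total signal, and 144 of the 456 overlapped one of those 228 regions.

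The strongest member lay between Col4a1 and Col4a2, a divergent gene pair that encodes the chains of type IV collagen (chr8:11302835-11326462). It ranked 22, 14 and 26 in DP replicates 1, 2 and 3 and 27, 15 and 21 in the Pdgfra+ replicates, and 21791 and 18263 in Oct4+ replicates 1 and 2, with no peak listed in replicate 3. All 6 DP and Pdgfra+ values were among the first 30 places of their lists. H3K27me3, measured in separate libraries, was listed in this region in 3 of 3 Oct4+ and in none of 6 DP and Pdgfra+ libraries, while H3K4me1 was listed in all 9. A further member contained a Col4a1 TSS inside the gene (chr8:11254462-11286231), with ranks of 26, 196 and 826 in DP, 199, 259 and 86 in Pdgfra+ and 53311 in Oct4+ replicate 2 alone. With another in an intron of Col4a2, the locus held 3 members over 118 kb.

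Next by mean rank over the 6 libraries were promoters of Lrrfip1 (29.5), Tnrc18 (55.3), Retreg1 (60.0), a receptor for the turnover of endoplasmic reticulum, and Ubald2 (64.5). The region 65.6 kb from Gata4, a transcription factor of the endoderm, followed with 64.7 (chr14:63337335-63348840). It ranked 56, 63 and 113 in DP and 93, 12 and 51 in Pdgfra+, and 20590 in Oct4+ replicate 2 with no peak in the other 2. The first 10 places were completed by Ntn3 and Tbc1d24 (68.7), an intron of Gsn (72.3), which encodes the actin-severing protein gelsolin, Atf3 (79.3), a stress-induced transcription factor, and an intron of Creb3l2 (82.7), a membrane-bound transcription factor of the secretory pathway. Of these 10 regions, only that of Lrrfip1 held a listed peak of all 3 Oct4+ libraries, at ranks 6689, 4307 and 5883.

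**Figure D2:**
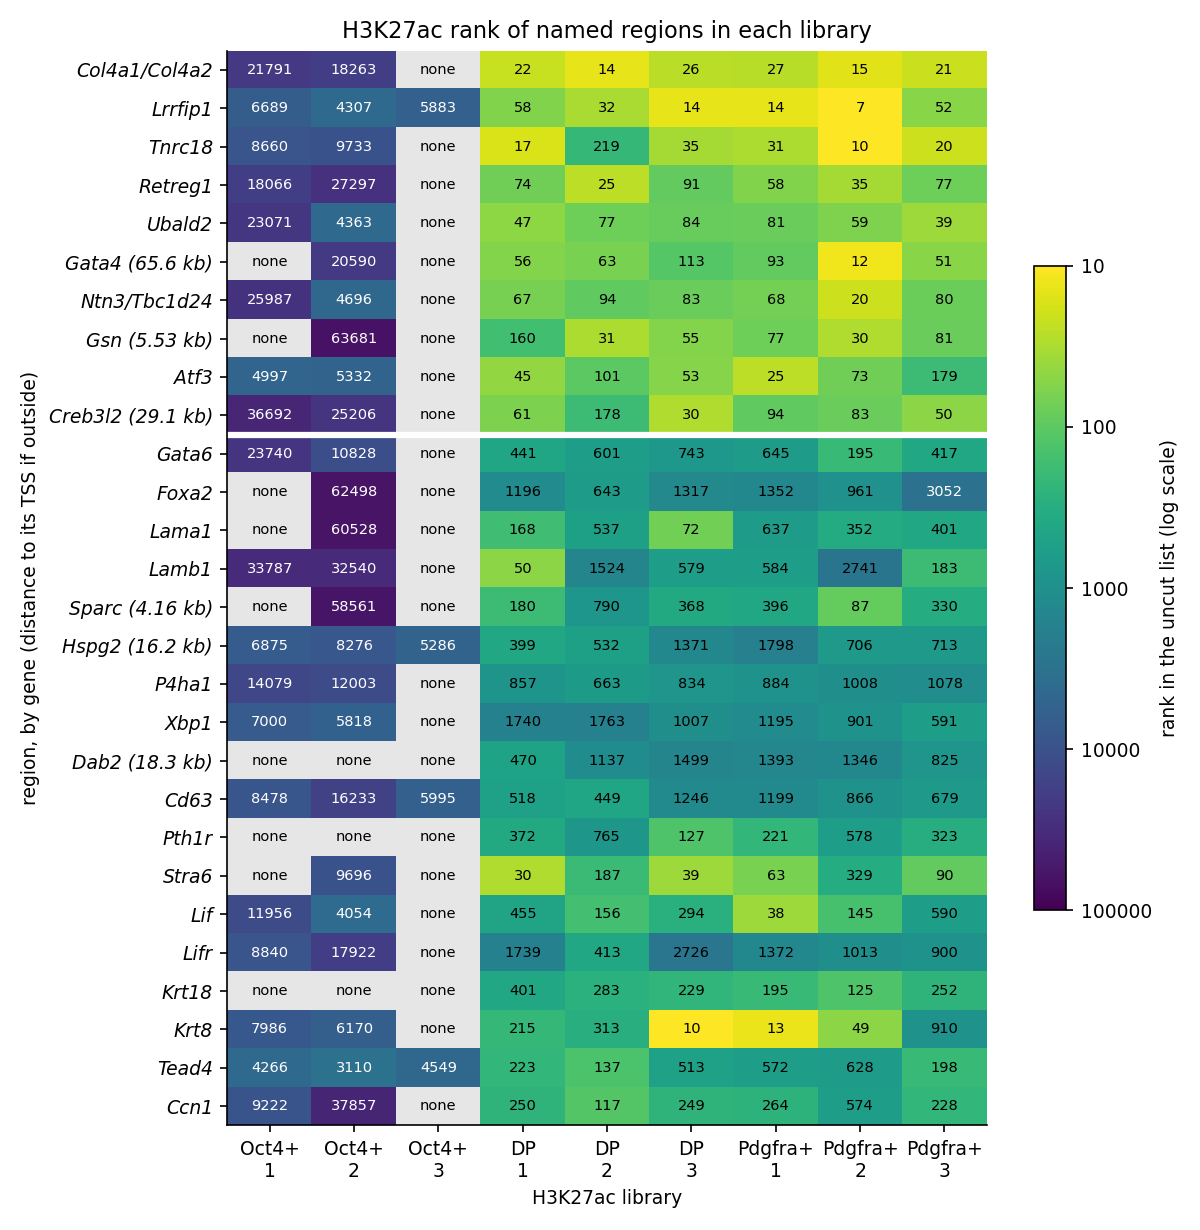
Rank by total H3K27ac signal in the uncut lists (colour, log scale, yellow strongest; the number is printed in each cell, and grey cells had no listed peak) for the 10 regions of highest mean rank, above the white line, and for 18 regions at or near genes of the lists, below it. Columns are the 9 libraries. Pth1r, Krt18 and the region near Dab2 have no peak in any Oct4+ list, and Tead4 comes nearest to the cut in Oct4+ replicate 2, at rank 3110.

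Most members were promoters. Of the 456 regions, 360 (78.9%) overlapped a promoter, taken as 1 kb upstream to 100 bp downstream of any annotated TSS, 46 had their maximum in an intron, 48 between genes and 2 in an exon. The promoter share was 93.6% for constant regions, 39.7% for Oct4+ regions and 63.5% for all merged regions, so these regions lay between the constant and the Oct4+ ones. The base composition around the maximum, taken in an Oct4+ library for Oct4+ regions and in a DP library for the others, had the same order. The ratio of observed to expected CpG over 500 bp was a median 0.478 in these regions, 0.799 in constant and 0.189 in Oct4+ regions, with GC contents of 57.8%, 64.4% and 47.8%. The median width was 7857 bp (quartiles 5933 and 10896), against 8764 bp for constant, 8224 bp for Oct4+ and 6571 bp for all regions, and each was merged from at least 6 peaks. None lay on chromosome X, where 31 of the 8127 regions but no constant region were found.

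The 96 members outside promoters lay a median 26.8 kb from the nearest protein-coding TSS, 42 within 20 kb and 25 over 50 kb away. After the Gata4, Gsn and Creb3l2 regions, those of highest mean rank were near Dscam (125.5), Arhgap8 (222.8), Klf6 (255.2), Podxl (268.8), which encodes the apical sialomucin podocalyxin, and Vit (282.0). The Dscam region held a peak of each Oct4+ library, at ranks 20467, 7115 and 7643, whereas the Vit region held none.

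Most members stood alone: 376 had no other within 100 kb, while 80 stood in runs, of which 34 held 2 and 4 held 3. Such runs were not counted for constant or all merged regions, so whether members were grouped or scattered was not tested. Besides the type IV collagen locus, runs of 3 lay at Plekha6 and Golt1a (156 kb, chromosome 1), in and around Mob3b (64.2 kb, chromosome 4), and at the zinc finger genes Zfp52 and Zfp948 (51.6 kb, chromosome 17).

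H3K4me1 was measured in separate libraries and did not enter the rule. It also marks active enhancers and the flanks of active promoters, so its values are not independent of the choice by H3K27ac. A peak was listed in 13.8, 43.2 and 21.5% of the 456 regions in Oct4+ replicates 1, 2 and 3, in 39.7, 75.9 and 64.3% in DP and in 27.2, 19.1 and 72.4% in Pdgfra+. The populations overlapped, and the low Pdgfra+ values belonged to the lists of 1723 and 1074 peaks. The mean was 49.7% ± 24.3 (SD, n = 6) in DP and Pdgfra+ against 26.2% ± 15.2 (SD, n = 3) in Oct4+, a difference of 23.6 percentage points that did not pass the exact two-sided permutation test over 84 assignments of libraries (p = 0.19, adjusted p = 0.286 over 6 tests). With the 1074 strongest H3K4me1 peaks of each library, the difference was 18.2 points and passed (exact permutation p = 0.0119, adjusted p = 0.0179). Constant regions in the same library served as a reference for list length, although they hold strong Oct4+ H3K27ac by choice. Their shares were 25.9, 60.6 and 41.8% in Oct4+, 28.6, 66.7 and 52.8% in DP and 16.6, 12.7 and 51.3% in Pdgfra+. H3K4me1 was therefore less frequent at the 456 regions than at constant regions in each Oct4+ library (differences of -12.1, -17.4 and -20.3 points) and more frequent in each DP library, by 11.1, 9.13 and 11.4 points, and in each Pdgfra+ library, by 10.6, 6.37 and 21.0 points. All merged regions held H3K4me1 in 17.9, 48.6 and 29.6% in Oct4+, 20.5, 50.2 and 40.1% in DP and 10.6, 7.3 and 40.2% in Pdgfra+. Against these the 456 were again lower in each Oct4+ library, by less, and higher in the others. At promoters the Oct4+ values were close, 14.7, 45.8 and 23.3% of the members against 15.4, 45.1 and 25.6% of the merged regions. Outside promoters they were 10.4, 33.3 and 14.6% against 22.3, 54.7 and 36.6%. The Oct4+ part of the excess thus depends on the reference and on position, and the comparison with all merged regions was not tested.

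The difference between the populations in this excess was 28.2 points, from -16.6 ± 4.17 (SD, n = 3) in Oct4+ to 11.6 ± 4.97 (SD, n = 6) in DP and Pdgfra+, with 6 of 6 libraries above all Oct4+ libraries. The exact permutation p was 0.0119, the smallest that 84 assignments can give, and the adjusted p was 0.0476. That adjusted p rests on counting the H3K27me3 share and excess as separate tests, although the 2 nearly coincide. With equal numbers of peaks the difference was 19.9 points (exact permutation p = 0.0119, adjusted p = 0.0179). The call was lost when at least 50% of a region had to be covered (17.0 points, exact permutation p = 0.0238, adjusted p = 0.0571). Outside promoters, where 96 members met 26 constant regions, the difference was 56.1 points with the 6 libraries again above all Oct4+ libraries (exact permutation p = 0.0119, adjusted p = 0.0714).

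In DP and Pdgfra+, members outside promoters carried more H3K4me1 than those at promoters, and in Oct4+ less. A peak was listed in 62.5, 92.7 and 90.6% of these 96 regions in DP and in 42.7, 34.4 and 95.8% in Pdgfra+, against 10.4, 33.3 and 14.6% in Oct4+. Each DP and Pdgfra+ value was above each Oct4+ value. Region by region, 58 of the 456 (12.7%) held H3K4me1 in at least 2 DP and 2 Pdgfra+ libraries and in no Oct4+ library, where 3.85% of all 8127 regions did, and 31 of the 58 lay outside promoters. The first 5 of the 58 by mean rank were the Gata4 region, the Gsn intron, Nsd2, a histone methyltransferase gene, a region 24.5 kb from Zfp36l2, and Krt18. In the opposite direction, 5 of the 456 (1.1%) held H3K4me1 of Oct4+ without DP or Pdgfra+, where 13.9% of all regions did, and 73 (16.0%) held none in any library, where 27.4% of all did. Of those 73, 72 were promoters.

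H3K4me1 in Oct4+ went with the weak H3K27ac peaks of that population. In the 37 regions without any listed Oct4+ H3K27ac peak, H3K4me1 was listed in 0, 16.2 and 5.41% in the Oct4+ libraries and in 51.4, 94.6 and 83.8% in DP. In the 162 regions with a weak H3K27ac peak of all 3 Oct4+ libraries, the values were 16.0, 45.7 and 26.5% in Oct4+ and 25.3, 63.6 and 42.6% in DP. These are descriptions of subsets cut by H3K27ac and were not tested.

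**Figure D3:**
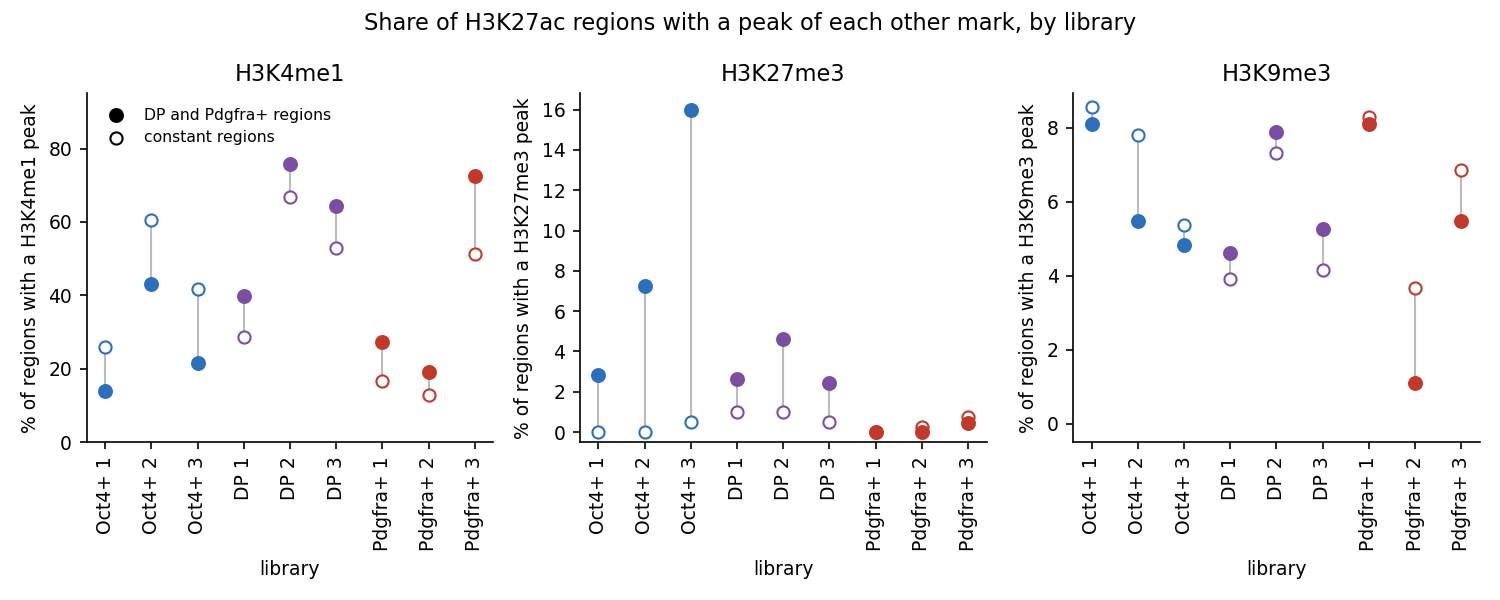
Share of regions (vertical, %) that overlapped at least 1 peak of H3K4me1, H3K27me3 or H3K9me3 (panels) in each library (horizontal). Filled circles are the 456 DP and Pdgfra+ regions, open circles the 409 constant regions, and a line joins both values of a library. For H3K4me1 the filled circle is below the open one in the 3 Oct4+ libraries and above it in the other 6. H3K27me3 reaches 16.0% in Oct4+ replicate 3 and at most 0.439% in Pdgfra+, and each panel has its own vertical scale.

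H3K27me3 showed the reverse picture at a minority of the regions. Both H3K27 marks modify the same lysine, so this picture is not independent of the choice by H3K27ac. A peak was listed in 2.85, 7.24 and 16.0% of the 456 in Oct4+ replicates 1, 2 and 3, in 2.63, 4.61 and 2.41% in DP and in 0, 0 and 0.439% in Pdgfra+, with 1 DP library above 1 Oct4+ library. Constant regions held at most 0.978% in any library, so share and excess nearly coincide and are not separate support. The adjusted p-values of 0.0476 below rest on counting both. The share was 8.70% ± 6.70 (SD, n = 3) in Oct4+ and 1.68% ± 1.85 (SD, n = 6) in DP and Pdgfra+, a difference of -7.02 points (exact permutation p = 0.0238, adjusted p = 0.0476), and the difference in the excess over constant regions was -7.43 points (exact permutation p = 0.0238, adjusted p = 0.0476). With the 1143 strongest H3K27me3 peaks of each library both differences kept their call at a smaller size, -2.08 and -2.33 points (exact permutation p = 0.0119, adjusted p = 0.0179), and with at least 50% of the region covered both lost it, at -3.95 and -3.87 points (exact permutation p = 0.0476, adjusted p = 0.0571). The size rested on Oct4+ replicate 3: without the libraries of that number the difference in share was -3.23 points (exact permutation p = 0.20). Outside promoters it was -1.74 points (exact permutation p = 0.214, adjusted p = 0.257).

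The regions with H3K27me3 in Oct4+ were mostly promoters. In at least 2 Oct4+ libraries it was listed at 36 of the 456 (7.89%), where 2.5% of all 8127 regions met this, 0 of the constant and 2 of the Oct4+ regions. Of the 36, 35 overlapped a promoter, and 26 (5.7%, against 1.02% of all regions) held it in no DP or Pdgfra+ library. By mean rank the first were Col4a1 and Col4a2 with 3 of 3 Oct4+ libraries, Ntn3 and Tbc1d24 with 2, Atf3 with 3, Stra6, which encodes the retinol transporter, with 2, and the region near Zfp36l2 with 2. Atf3 also held it in 2 and Ntn3 and Tbc1d24 in 1 of 3 DP libraries. Gata6, Lamb1 and Pth1r held it in 3 and Foxa2 in 2 of 3 Oct4+ libraries, and none of these 4 in a DP or Pdgfra+ library. Egr1, an immediate-early gene of ERK signaling, held it in 3 Oct4+, 3 DP and 1 Pdgfra+ library beside its H3K27ac.

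H3K9me3 did not pass the tests at these regions. It was listed in 8.11, 5.48 and 4.82% in Oct4+, 4.61, 7.89 and 5.26% in DP and 8.11, 1.10 and 5.48% in Pdgfra+, a difference of -0.731 points (exact permutation p = 0.702), and the excess over constant regions differed by 0.817 points (exact permutation p = 0.393), with a direction that turned under 4 of the alternatives. In at least 2 libraries of a population it was listed at 43 of the 456 (9.43%), where 11.7% of all regions met this, and among the 473 Oct4+ regions 155 (32.8%) did.

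Genes around the regions were read from 17 lists. A member lay within 20 kb of the TSS of 680 of 21829 protein-coding genes (3.12%), and the TSS itself lay in a member for 387 (1.77%). For the 473 Oct4+ regions the share within 20 kb was 1.58%. A constant region lay within 20 kb of 3.42%. These are the backgrounds for each list, and lists of 14 to 30 genes allow no finer reading than the counts.

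Within 20 kb, basement membrane genes had the highest share of the lists, 7 of 22 (31.8%), of which Col4a1 and Col4a2 share 1 region. A TSS inside a member was found for 5 of the 22 (22.7%), against 6 of 26 (23.1%) of the cytoskeleton and adhesion genes. Of the 22, 1 had an Oct4+ region and 2 (9.09%) a constant region within 20 kb. Besides Col4a1 and Col4a2 the 7 genes were the laminin chain genes Lama1 and Lamb1, the matrix glycoprotein gene Sparc, P4ha1, whose product hydroxylates collagen, and Hspg2, which encodes perlecan. The Hspg2 member lay 16.2 kb from the TSS and held peaks of all 3 Oct4+ libraries (6875, 8276 and 5286), and the strongest peak at a TSS of Hspg2 itself ranked 398 and 1969 in Oct4+ replicates 2 and 3, inside the cut. Lama1 ranked 168, 537 and 72 in DP and 637, 352 and 401 in Pdgfra+, and 60528 in Oct4+ replicate 2 alone. Lamb1 varied more among the libraries that chose it, with 50, 1524 and 579 in DP and 584, 2741 and 183 in Pdgfra+. The Sparc region, whose sequence held none of the 6 motifs, ranked 180, 790 and 368 in DP and 396, 87 and 330 in Pdgfra+ and held H3K4me1 in 3 DP, 2 Pdgfra+ and no Oct4+ libraries. Other genes of the list went the other way. The TSS of Dag1 ranked 1479, 1427 and 659 in Oct4+ and had no Pdgfra+ peak. That of Col18a1 ranked 2187 and 2159 in Oct4+ replicates 1 and 2, with no DP or Pdgfra+ peak. Nid2 and the laminin chain gene Lamc1 had no Pdgfra+ TSS peak, and Nid1 had none in any library.

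Of 15 endoderm transcription factors, 2 (13.3%) had a member within 20 kb, Gata6 and Foxa2, both at the promoter. Gata6 ranked 441, 601 and 743 in DP, 645, 195 and 417 in Pdgfra+, and 23740 and 10828 in Oct4+ replicates 1 and 2. Foxa2 ranked 1196, 643 and 1317 in DP and 1352, 961 and 3052 in Pdgfra+, the last only just inside the cut, with 62498 in Oct4+ replicate 2. Sox7, Gata4, Foxa3 and Sox17 fell below the cut or had no TSS peak in 1 to 3 of the 6 libraries. The TSS of Sox7 ranked 384, 928 and 3368 in DP and 1110, 1405 and 974 in Pdgfra+, and those of Gata4, Foxa3 and Sox17 had no peak in the short list of DP replicate 2. Foxa1, Otx2, Prdm1, Mixl1, Cited1 and Foxq1 had no TSS peak in any DP or Pdgfra+ list.

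Lists of mature endoderm functions had 2 or 3 genes each. Of 22 genes of the secretory pathway 2 (9.09%) were near a member, Xbp1 and Creb3l2, which encode transcription factors of the unfolded protein response and of secretion. Of 22 genes of endocytosis and lysosome 3 (13.6%) were, the cathepsin gene Ctsz, the tetraspanin gene Cd63 and the endocytic adaptor gene Dab2. The region 18.3 kb from Dab2 lay at the promoter of C9 and had no Oct4+ peak, with ranks of 470, 1137 and 1499 in DP and 1393, 1346 and 825 in Pdgfra+. Of 14 parietal endoderm genes 3 (21.4%) were near a member, Stra6, Lamb1 and Pga5, and of 18 visceral endoderm genes 2 (11.1%), Pth1r, a receptor of parathyroid hormone-related protein, and Cldn6, a claudin of tight junctions. The Pga5 member lay at the promoter of Vps37c, 6.21 kb from the TSS of Pga5, with peaks of all 3 Oct4+ libraries. The Cldn6 member also held a TSS of Cldn9, Hcfc1r1, Thoc6 and Tnfrsf12a. H3K27me3 was listed there in 2 of 3 Oct4+ and 3 of 3 DP libraries. Pth1r ranked 372, 765 and 127 in DP and 221, 578 and 323 in Pdgfra+, with no Oct4+ peak.

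Cytoskeleton and adhesion genes had 6 of 26 (23.1%), where constant regions had 4 (15.4%): the keratin pair Krt8 and Krt18, and Actn1, Tln1, Tpm4 and Zyx, whose products bind actin or focal adhesions. Krt18 ranked 401, 283 and 229 in DP and 195, 125 and 252 in Pdgfra+ and had no Oct4+ peak. It was the strongest of the 37 members of which this was true, although H3K9me3 was listed there in 2 of 3 Oct4+ libraries, followed by the Vit intron, Pth1r, a region 66.5 kb from Foxo1 and the Ubash3b promoter. The neighbouring Krt8 region had ranks of 10 and 13 in DP replicate 3 and Pdgfra+ replicate 1 but of 910 in Pdgfra+ replicate 3. The YAP and TEAD pathway had 4 of 18 genes (22.2%), where constant regions had 3 (16.7%). These were the coactivator gene Wwtr1 (TAZ), the transcription factor gene Tead4, the kinase gene Lats1 and the target gene Ccn1. Tead4 and Wwtr1 held weak peaks of all 3 Oct4+ libraries close to the cut, at ranks of 4266, 3110 and 4549 and of 4365, 3470 and 3171. Tead4 also had a TSS peak at rank 831 in Oct4+ replicate 1, outside the member.

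Among signaling pathways, the LIF and JAK-STAT list had 2 of 20 genes (10%), the ligand gene Lif and the receptor gene Lifr. Lif ranked 455, 156 and 294 in DP and 38, 145 and 590 in Pdgfra+, and 11956 and 4054 in Oct4+ replicates 1 and 2. Lifr was weaker, with 1739, 413 and 2726 in DP and 1372, 1013 and 900 in Pdgfra+. The PDGF, FGF and ERK list had 1 of 30 (3.33%, Egr1) and the Wnt list 1 of 24 (4.17%, the kinase gene Gsk3b), close to the share of all genes. No member lay within 20 kb of the 22 Activin and Nodal or the 19 BMP pathway genes, and the sterol and fatty acid list had 1 of 20, Srebf2.

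Lists of other lineages differed. Of 25 pluripotency genes 1 (4.0%) had a member within 20 kb, Tbx3, whereas 5 (20%) had an Oct4+ region. Of 20 trophectoderm genes 3 (15.0%) did, the keratin pair and Tead4, which stand on the lists above as well, and of the 20 fibroblast and mesenchyme markers 0. Over all 17 lists, 36 distinct members were near a list gene. Of these, 33 held a weak Oct4+ peak, as did 91.9% of all members, so this count does not set them apart. H3K27me3 in at least 2 Oct4+ libraries was listed at 9 of the 36, against 7.89% of all members and 2.5% of all merged regions. This difference was not tested.

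**Figure D4:**
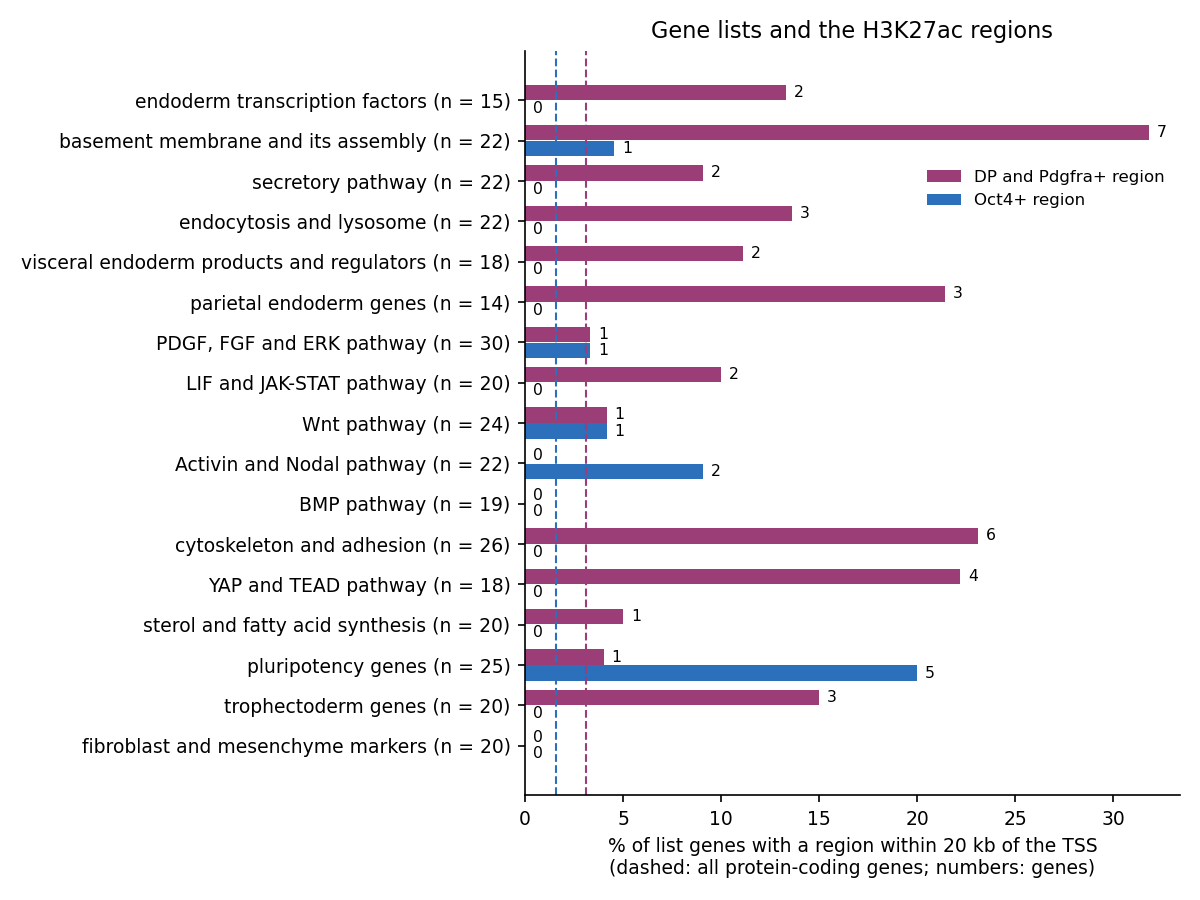
Share of the genes of each list (vertical; n is the number of genes) with a DP and Pdgfra+ region (purple) or an Oct4+ region (blue) within 20 kb of a TSS (horizontal, %). Numbers beside the bars count genes, and dashed lines give the shares of all 21829 protein-coding genes, 3.12% and 1.58%. Basement membrane genes have the longest purple bar (7 of 22) and pluripotency genes the longest blue bar (5 of 25).

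Motifs were counted in windows of 400 bp around the H3K27ac maximum, with the 95% Wilson interval of each share, which covers the number of regions alone. The maximum was taken in the library of highest total signal. This was a DP library for the 456 and the constant regions, an Oct4+ library for Oct4+ regions and any library for other merged regions. Windows of different sets were thus placed by different populations. GATA was found in 22 of 96 windows outside promoters (22.9%, interval 15.6 to 32.3), against 13.8% of the 2966 merged regions outside promoters, 10.5% of Oct4+ regions there and 1 of 26 constant regions. At promoters it was found in 13.6% (10.5 to 17.5) of 360, against 6.49% of 5161 merged regions and 3.92% of constant regions. AP-1 was found in 24.0% (16.5 to 33.4) outside promoters, against 14.4% of the merged and 9.47% of the Oct4+ regions but 23.1% (11 to 42.1) of the 26 constant ones, and in 12.2% (9.23 to 16.0) at promoters, against 7.36% of the merged and 6.79% of the constant regions. The merged regions include the 456, and these differences were not tested.

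Outside promoters, intervals of 4 further motifs held the share of merged regions: SOX 26.0% against 21.5% of merged regions, FOX 9.38% against 8.36%, HNF1 6.25% against 4.18% and TEAD 8.33% against 10.8%. At promoters TEAD was found in 7.5% (5.21 to 10.7) against 5.02%, HNF1 in 3.33% (1.92 to 5.74) against 1.69%, SOX in 11.1% (8.27 to 14.8) against 9.69% and FOX in 3.06% (1.71 to 5.39) against 3.41%. Outside promoters, STAT (TTCCNGGAA) was found in 5 of 96 (5.21%, interval 2.24 to 11.6) against 2.12%, and the LEF and TCF letters (CTTTGAAG or CTTTGATC) in 2 of 96 (2.08%) against 4.15%. OCT (ATGCAAAT) and ESRRB (TCAAGGTCA) were found in 1 of 96 windows each, where 11 and 16 of the 285 Oct4+ regions outside promoters held them (3.86% and 5.61%). Over all 456 regions, the promoter motifs KLF and SP (GGGCGG or CCACACCC) and NFY (CCAAT) were found in 53.5% and 31.1%, against 43.0% and 35.1% of all merged regions, and HNF4 (CAAAGTCCA) in 0.658% against 0.701%.

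**Figure D5:**
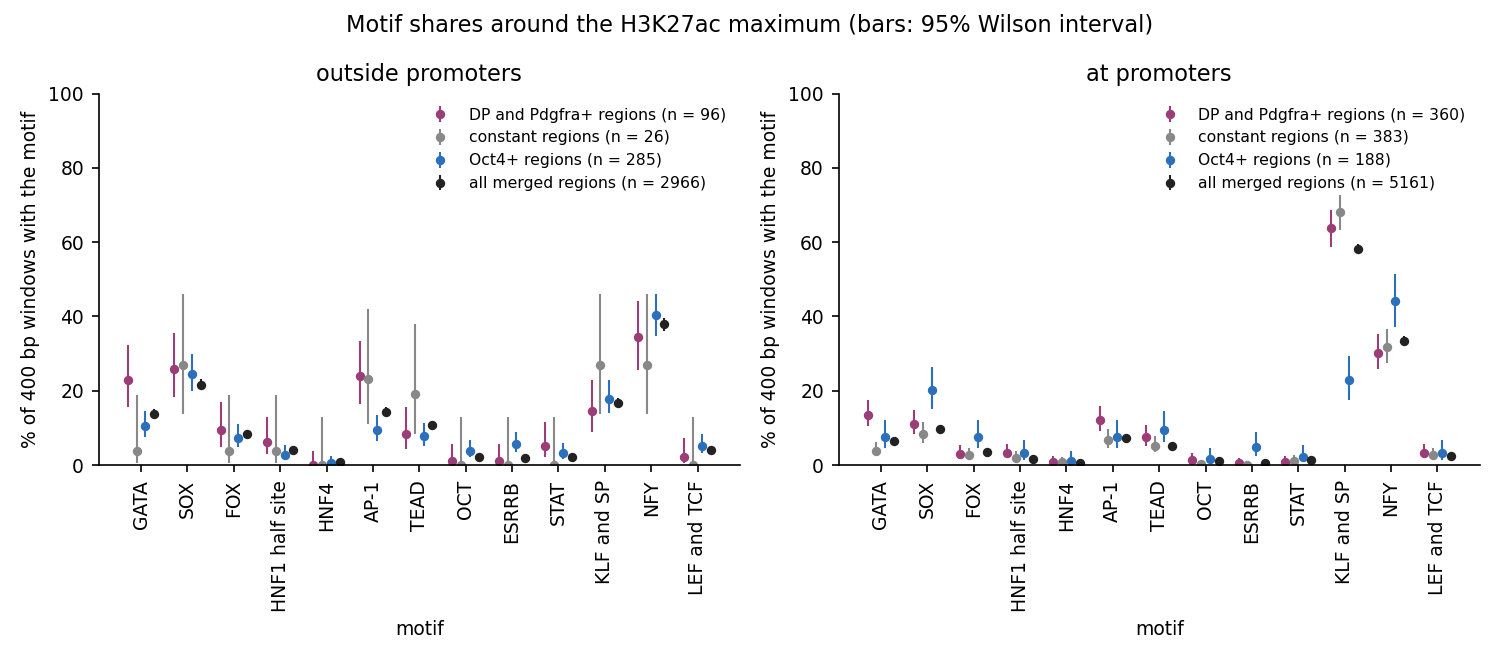
Share of 400 bp windows (vertical, %) with each of 13 motifs (horizontal) outside promoters (left) and at promoters (right). Colours are the DP and Pdgfra+ regions, constant regions, Oct4+ regions and all merged regions, and bars are 95% Wilson intervals. GATA and AP-1 lie higher in the DP and Pdgfra+ regions than in all merged regions in both panels, and the intervals of the 26 constant regions outside promoters are wide.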

How the data were processed

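The deposited files were peak lists, 1 per library, that the authors called against IgG with SEACR in stringent mode from BEDtools fragment coverage. Each line of the deposited lists holds an interval with its total signal and its maximum signal, in summed and highest coverage. Whether these were scaled to depth is not given in the sources used here, so regions were compared by their rank within a list. The submitters' processing notes name Bowtie2, SAMtools 1.12, bcl2fastq 2.19.1, bedtools 2.26.0, deepTools, SEACR and the build mm10.

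The regions, gene lists and motifs were chosen with earlier results of these data known. Overlaps of at least 1 base were computed in Python 3.11.15 (NumPy 2.4.6, pandas 2.3.3, SciPy 1.17.1) and checked against bedtools 2.31.1 and on simulated data. TSS, exons and introns came from GENCODE vM21 and sequences from RefSeq GRCm38.p6. All 357 list entries matched an annotated gene.

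The library was the unit of the 6 tests, which were exact two-sided permutation tests of a difference of means over 84 assignments of 9 libraries, adjusted after Benjamini and Hochberg with a threshold of 0.05. Alternatives of the tests changed the number of mark peaks, overlap, position and libraries. For the number of regions, the H3K27ac cut, the ranking column, merging and the H3K27ac libraries were changed. The tests were not repeated on the regions chosen that way. Promoter definition, distance and motif window were changed for the counts and motif shares.

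Regions named were the 10 of highest mean rank over the 6 libraries, the 8 highest outside promoters, those within 20 kb of a list gene, the 5 highest with each of 3 patterns (H3K27me3 in Oct4+, H3K4me1 without Oct4+, no Oct4+ H3K27ac peak), runs of at least 3 within 100 kb, and the regions next to the threshold.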

Additional observations from a re-analysis of the deposited data

How the results depend on the processing

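The number of regions depended most on the rule. It was 293 with the top 2000 peaks, 160 with the top 1000, 86 with no cut, 228 ranked by maximum signal and 170 ranked by total signal over width, against 456, and leaving out 1 H3K27ac library gave 491 to 538. With at least 50% of the region covered, 196 instead of 419 regions held an Oct4+ peak. For H3K4me1, the same number of peaks in each library (1074) gave a difference in share of 18.2 points (exact permutation p = 0.0119, adjusted p = 0.0179), past the threshold that the full lists missed. The same setting gave 19.9 points for the H3K4me1 excess and, with 1143 peaks, -2.08 for the H3K27me3 share and -2.33 for its excess, each past the threshold (adjusted p = 0.0179, exact permutation test).

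With 50% coverage, the H3K4me1 excess was 17.0, the H3K27me3 share -3.95 and its excess -3.87 points (adjusted p = 0.0571 each, exact permutation test). Outside promoters the values were 56.1, -1.74 and -1.74. Without replicate 1, 2 or 3 they ran from 24.1 to 30.9, from -9.76 to -3.23 and from -10.1 to -3.78, where 15 assignments allow no p below 0.0667. Without replicate 3 the H3K27me3 share and excess had an exact permutation p of 0.20 each. DP minus Oct4+ alone gave 27.2, -5.48 and -6.13 (exact permutation p = 0.10, 0.20 and 0.20). Pdgfra+ minus Oct4+ alone gave 29.3, -8.55 and -8.72 (exact permutation p = 0.10 each). In both, 20 assignments allow no p below 0.10. At promoters alone, chosen after seeing the data, all 3 calls held (21.0, -8.43 and -8.86, adjusted p = 0.0476, exact permutation test), and without the 2 shortest H3K4me1 lists, chosen likewise, the H3K4me1 excess was 29.8 (exact permutation p = 0.0286 over 35 assignments).

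Same-numbered libraries deviated together with r from -0.24 to 0.18, above 0.1 in 8 of 36 pairs, and 13 of 36 correlated best with their own number. Those 8 were 4 of 9 pairs of H3K4me1 and 4 of 9 of H3K27me3. These values do not settle whether replicate numbers pair the libraries. With the replicate block, 27 assignments allow no p below 0.037, and the values of 28.2, -7.02 and -7.43 then had an adjusted p of 0.0741 (exact permutation test).

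The H3K9me3 excess (0.817) turned to -0.694 with 50% coverage, -0.118 within 2 kb around the maximum, -0.736 with equal peak numbers and -0.265 for Pdgfra+ minus Oct4+ alone, and its share (-0.731) to 0.868 outside promoters. With 50% coverage that excess had an exact permutation p of 0.0119 and an adjusted p of 0.0571. The share was then -0.694 points (exact permutation p = 0.0476, adjusted p = 0.0571). In 200 bp windows the shares of regions outside promoters with GATA and AP-1 were both 14.6%, against 7.35% and 8.29% of merged regions. The cause of these changes was not tested. Read depth is unknown, so absence of a peak limits every share.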
